A study of Mus musculus with 6 samples.

Results

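The U2 spliceosomal RNA genes were followed through YTHDC1 binding in muscle stem cells and myoblasts. The genes were the 51 mouse mm9 genes that GENCODE names U2 and types as snRNA, of 37310 annotated genes in all. Their peaks were those of the 6 LACE-seq peak lists that overlapped such a gene by at least 1 nt on the strand of its RNA, 210 peaks of 178779. LACE-seq maps where a protein touches RNA: UV light crosslinks the protein to the RNA, the complex is immunoprecipitated with an antibody, here against the m6A reader YTHDC1, MNase trims the RNA, and reverse transcription stops at the crosslinked base. The labels mark every library as WT, and the mouse line that gave the satellite cells of these libraries is not given in the sources used here. ASC-48 hr are mouse satellite cells, the stem cells of skeletal muscle, that had been activated by 48 hr in culture, and gave 4 libraries: each of the biological replicates B1 and B2 was prepared as technical replicates T1 and T2. C2C12, an established mouse myoblast line, gave 2 libraries, B1 and B2, from 10 times as many cells. The labels call these biological replicates whereas the text of the study calls them technical, so the spread between them may be technical only, and no library with a control antibody was used here.

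U2 snRNA is the RNA core of the U2 snRNP, which pairs with the branch point of the intron in the early spliceosome. Its 5′ part holds the branch point recognition sequence, its middle holds the Sm site around which a ring of Sm proteins is built, and its 3′ part folds into stem loops that carry U2-specific proteins. YTHDC1 is a nuclear protein whose YTH domain reads N6-methyladenosine and which takes part in splicing and nuclear export. Mammalian genomes hold many U2 copies and fragments, most of them pseudogenes, and a short read cannot always be given to 1 of them.

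The reference for positions was the copy closest to all other copies of 180 to 200 nt, named U2-11a here (the first U2 gene along chromosome 11, ENSMUSG00000064856, chr11:83085000-83085190, plus strand). Its whole RNA sequence is shown because windows of the RNA are counted on it, with base 1 at its 5′ end, while the bins of a single copy are counted from that copy's own first base. The first run of capitals is the branch point recognition word GTAGTA at bases 33 to 38, and the second run is the Sm word ATTTTTG at bases 99 to 105.

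U2-11a: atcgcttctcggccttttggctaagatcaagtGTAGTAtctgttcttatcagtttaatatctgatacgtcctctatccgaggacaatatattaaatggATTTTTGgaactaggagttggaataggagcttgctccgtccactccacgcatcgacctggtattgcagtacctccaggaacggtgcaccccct

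The copies that carried peaks differed in how far their 5′ end matched this RNA. The first 40 bases of several copies are therefore shown, with capitals for the bases that match the reference without a break from base 1. U2-1a stands for the 13 copies that match over all 40 bases. U2-15a, U2-Xa and U2-11c lost the match early and still held peaks in 4, 6 and 6 libraries. U2-Xe held none, although it is as long as the reference.

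U2-1a (chr1:72272814-72273004, plus strand): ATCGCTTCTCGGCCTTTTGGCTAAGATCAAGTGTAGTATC

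U2-15a (chr15:48382854-48382986, plus strand): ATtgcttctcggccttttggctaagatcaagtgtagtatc

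U2-Xa (chrX:13892527-13892717, minus strand): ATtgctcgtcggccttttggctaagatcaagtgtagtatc

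U2-11c (chr11:98334989-98335122, minus strand): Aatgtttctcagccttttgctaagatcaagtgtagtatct

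U2-Xe (chrX:107818171-107818361, minus strand): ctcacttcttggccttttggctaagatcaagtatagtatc

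The 51 genes lay on 17 chromosomes, 25 on the plus and 26 on the minus strand, and measured 82 to 199 nt. Of these, 30 were 180 to 200 nt long and 11 had the 191 nt of the reference. The largest group was a cluster of 5 copies, U2-11e to U2-11i, within chr11:101466164-101519742, a stretch of 53.6 kb. Among the clustered copies, U2-11f, U2-11g, U2-11h and U2-11i are identical over all 191 nt, U2-11h on the minus strand and the others on the plus strand.

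A peak in the lists is 1 or more neighbouring bins of 20 nt, and its value is the number of reads per bin, not normalised to library size. The lists held 8115, 10759, 7925 and 19448 peaks in the ASC libraries, in the order B1 T1, B1 T2, B2 T1, B2 T2, and 60540 and 71992 in C2C12 B1 and B2. Values for ASC and C2C12 are given in this order throughout. The reads in those peaks were 57953 to 111729 in the ASC libraries and 523067 and 607366 in the C2C12 libraries, whereas the total reads of the libraries are unknown. The highest bin of a library nevertheless lay in a narrow range, 46 to 64 reads. Peaks on the satellite cell marker Pax7 numbered 1, 1, 2 and 10 in the ASC libraries and 0 and 1 in C2C12, and the myoblast marker Myod1 had 0, 2, 1 and 6 against 5 and 3. Des, which encodes the muscle intermediate filament desmin, had 0, 3, 1 and 4 against 18 and 17, and Myog, a marker of differentiation, had none in any library. Further markers of myoblasts and satellite cells had more peaks in both C2C12 libraries than in any ASC library. Myf5 had 0, 0, 1 and 0 against 2 and 2, Cdh15 had 0, 0, 0 and 0 against 6 and 9, and Itga7 had 0, 4, 5 and 8 against 28 and 20. A peak list depends on the abundance of an RNA and on its binding, which cannot be told apart here.

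YTHDC1 peaks were found on 26 of the 51 U2 genes, and the other 25 had none in any library. ASC B1 T1 held 25 U2 peaks on 14 genes and B1 T2 held 31 on 15. ASC B2 T1 held 38 on 19 genes and B2 T2 held 40 on 23. The C2C12 libraries held 36 on 22 genes and 40 on 23. The number of genes reached was thus lower in ASC B1 than in all other libraries, and ASC B2 overlapped with C2C12. No peak of any library lay on the opposite strand of a U2 gene, and no peak on the RNA strand lay in the 200 nt on either side, apart from those that reached over an end of the gene. Most U2 peaks were narrow, 145 of 210 being a single bin.

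In both C2C12 libraries 21 of the 51 U2 genes held a peak (41.2%, exact Clopper-Pearson 95% interval 27.6 to 55.8%), where 22.6% of the 1372 snRNA genes of other names did. In all 4 ASC libraries 14 of 51 did (27.5%, 15.9 to 41.7%), against 9.33% of the other snRNA genes. The intervals cover counting error across genes only, and copies that share sequence are not independent. With only peaks whose 20-nt sequence occurs at most 10 times in the genome, the counts fell to 12 and 3 genes, and with only sequences that occur once, to 7 and 1. The other families ranged widely around these backgrounds. U5, the RNA that holds the exons together, had 7 of 10 genes in C2C12 and 6 of 10 in ASC. U1, which pairs with the 5′ splice site, had 49 and 39 of 206, and U4 had 18 and 7 of 43. U6 had 222 and 71 of 936 genes, and U7, which acts in histone mRNA processing and not in splicing, had 1 and 0 of 116.

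**Figure D1:**
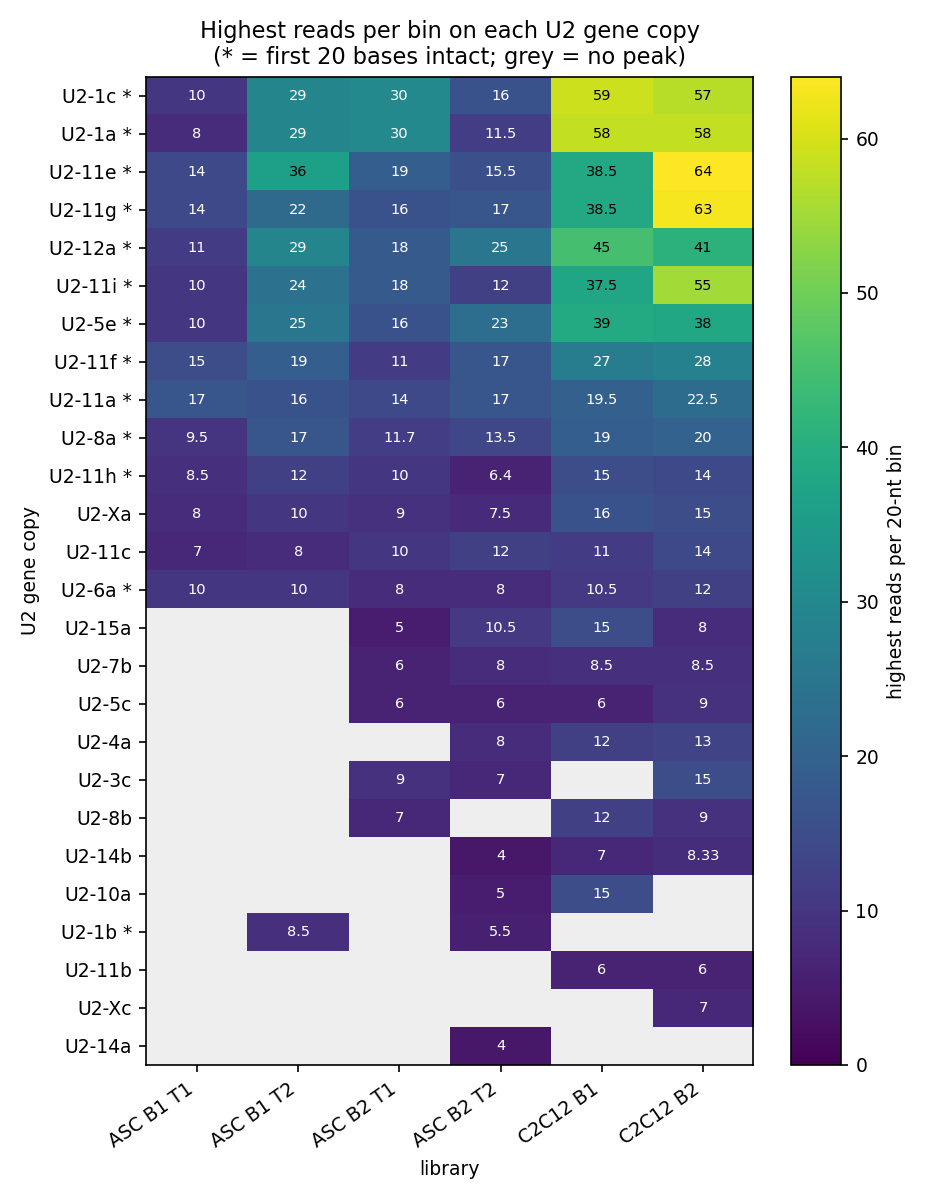
Each row is a U2 gene copy with a peak in at least 1 library and each column is a library; colour and number give the highest number of reads per 20-nt bin, grey marks no peak, and an asterisk marks copies with the first 20 bases of the reference intact. The 14 copies at the top have a peak in all 6 libraries and hold all values above 15 reads per bin.

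The 14 genes with a peak in all 4 ASC libraries also had a peak in both C2C12 libraries, so the same 14 copies were found in all 6. They held 178 of the 210 peaks. They took all U2 peak reads in ASC B1 T1, and between 87.7 and 97% in the other libraries. The other 12 copies reached at most 15 reads per bin. Of these 12 copies 9 had a peak in ASC B2 and none in ASC B1, and U2-11b and U2-Xc had peaks in C2C12 alone. U2-1b and U2-14a had peaks in ASC alone, at 4 to 8.5 reads per bin. Since both the lowest number of reads listed and the number of peaks differed between libraries, a copy missing from a list was not shown to be free of binding.

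Every copy with an intact 5′ end held a peak. The first 20 bases of the reference were intact in 13 copies, 12 of which held a peak in all 6 libraries, while U2-1b held one in 2. None of the 25 copies without a peak had these bases intact, against 13 of the 26 with one. The first 20 bases occur 176 times in the genome, so reads of 1 copy can be listed on another. U2-Xa and U2-11c were the copies with peaks in all 6 libraries whose 5′ end differed. Length did not order the genes in the same way. The median length was 171 nt for genes with a peak and 184 nt for genes without, and the median identity to the reference over the aligned bases was 87.1% and 75.4%. Of the 11 copies of 191 nt, 10 had a peak in all 6 libraries and U2-Xe, at 89.5% identity, had none.

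The highest means in C2C12 were those of U2-1a and U2-1c. U2-1a (ENSMUSG00000075752), in no other gene, had 8, 29, 30 and 11.5 reads per bin in its highest peak in the ASC libraries, and 58 and 58 in C2C12 B1 and B2. U2-1c (ENSMUSG00000077419, chr1:157801704-157801852, plus strand) is a copy of 149 nt inside Cep350, a centrosomal protein gene on the opposite strand. Its highest peaks had 10, 29, 30 and 16 reads per bin in ASC, and 59 and 57 in C2C12. Both copies were thus higher in C2C12 than in every ASC library.

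Clustered copies came next. U2-11e (ENSMUSG00000065820, chr11:101466164-101466354, plus strand) had 14, 36, 19 and 15.5 reads per bin in ASC, and 38.5 and 64 in C2C12. U2-11g (chr11:101503062-101503252, plus strand) had 14, 22, 16 and 17, and 38.5 and 63. U2-11i (chr11:101519552-101519742, plus strand) had 10, 24, 18 and 12, and 37.5 and 55. In C2C12 B1 the top peak of each spanned 2 bins and in B2 1 bin, so the lower B1 values are means over a wider peak.

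The remaining leading copies lay outside the cluster. U2-12a (chr12:60141322-60141512, plus strand) had 11, 29, 18 and 25 reads per bin in ASC, and 45 and 41 in C2C12. U2-5e (chr5:124078210-124078356, plus strand), a copy of 147 nt inside Clip1 on the opposite strand, had 10, 25, 16 and 23, and 39 and 38. The reference U2-11a itself had 17, 16, 14 and 17, and 19.5 and 22.5. U2-11a held less than U2-1a in C2C12 although the 2 RNAs share the first 77 bases. In C2C12 B2 the U2-11a peak over bases -18 to 21 held 36 reads in 2 bins. The U2-1a peak over bases -12 to 7 held 58 reads in 1 bin. The bins of the 2 copies are placed differently, and the part of this in the difference was not tested.

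Averaged first over technical replicates, the 5 leading ASC copies were U2-1c at 21.3 ± 2.47 reads per bin (SD, n = 2 biological replicates), U2-11e at 21.1 ± 5.48, U2-12a at 20.8 ± 1.06, U2-1a at 19.6 ± 1.59 and U2-5e at 18.5 ± 1.41. Neighbours in this order differed by less than the larger SD of the pair, and for all 5 copies the technical replicates of B1 lay further apart than the means of B1 and B2. In C2C12 U2-1a stood at 58.0 ± 0 (SD, n = 2) and U2-1c at 58.0 ± 1.41, followed by U2-11e at 51.3 ± 18, U2-11g at 50.8 ± 17.3 and U2-11i at 46.3 ± 12.4, and these too overlapped. In 13 of the 14 copies with a peak everywhere both C2C12 values were above all 4 ASC values, where 49.6% of 127 other snRNA genes with a peak in all 6 libraries were so ordered. U2-11c was the exception, with 7, 8, 10 and 12 in ASC and 11 and 14 in C2C12. Reads in peaks were also several times higher in C2C12, and their part in this difference was not tested. Copies that share sequence can list the same reads, so the 14 copies are not independent and their count cannot be weighed against the other genes.

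U2 ranked among the strongest peaks of C2C12. The highest U2 bin held 59 and 64 reads in C2C12 B1 and B2, where the highest bin of any gene held 62 and 64. Of the peaks with at least 40 reads per bin, 3 of 27 in C2C12 B1 and 6 of 24 in B2 lay on U2 genes. No U2 peak reached 40 in ASC, where 2, 6, 2 and 9 peaks did. The highest U2 bins there held 17, 36, 30 and 25 reads.

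As a share of all reads in peaks, U2 was nevertheless higher in the stem cells. U2 genes took 0.471, 0.702, 0.965 and 0.616% of peak reads in the ASC libraries, and 0.176 and 0.157% in C2C12 B1 and B2, without overlap. The means were 0.689% ± 0.144 (SD, n = 2 biological replicates) and 0.166% ± 0.0139 (SD, n = 2), a difference of 0.522 percentage points. The exact two-sided permutation test over 2 against 2 replicates gave p = 0.333, the smallest it can give, so the design cannot reach the usual threshold. Counting in each library only peaks with 6 reads per bin or more, the difference was 0.932 points, and with only sequences of at most 10 genome copies it was 0.168 points.

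**Figure D2:**
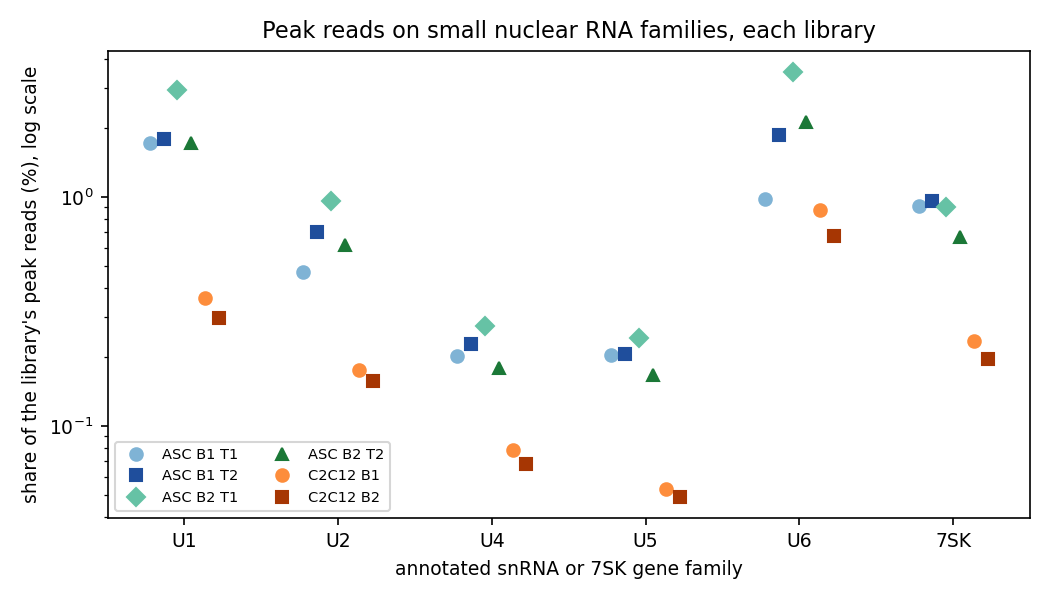
Each point is 1 library's share of peak reads, in percent on a log axis, on the annotated genes of a small nuclear RNA family; colour and shape give the library. For every family shown the 4 ASC libraries lie above both C2C12 libraries, with U2 at 0.471 to 0.965% against 0.157 and 0.176%.

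The same order held for U1, U4, U5, U6 and 7SK, the RNA that holds the elongation factor P-TEFb inactive, each of which had a higher share in all 4 ASC libraries. The share of U1 was 1.73, 1.79, 2.93 and 1.71% in ASC, and 0.362 and 0.297% in C2C12. Set against U1 within each library, U2 had the opposite order. There were 0.272, 0.393, 0.329 and 0.359 U2 reads for each U1 read in ASC, and 0.486 and 0.528 in C2C12. Set against U6 the ratio was 0.481, 0.375, 0.274 and 0.288 in ASC, and 0.200 and 0.232 in C2C12. Against U5 it was 2.31, 3.42, 4 and 3.68, and 3.34 and 3.19, so the direction depended on the family chosen.

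Within the RNA, the first 20 bases held more reads than any other 20-nt window in all 6 libraries. All of those reads lay on copies of the plus strand of the genome. Of the 60 peaks in this window 50 reached past the 5′ end of the gene. The lead was small in ASC B1 T1, 84 reads against 78 at bases 121 to 140. In that library the peaks of U2-1a and U2-11i, at 8 and 10 reads, overlapped the gene by only 7 and 9 nt. Without both, the window would not lead there. Each peak was placed by its midpoint, aligned to the reference, and its reads were summed over its bins. Bases 1 to 20 took 30.8, 40.5, 28.7 and 40.4% of U2 peak reads in ASC, and 51.8 and 50.3% in C2C12. Over biological replicates this was 35.1% ± 0.776 (SD, n = 2) in ASC and 51.1% ± 1.12 (SD, n = 2) in C2C12, and the technical replicates of ASC differed by more than the biological means. Plus-strand copies had 38.4 to 58.2% of their reads there in ASC and 64.9 and 66% in C2C12, and minus-strand copies, which held 20.1 to 30.5% of U2 reads, had none there in any library. The share at the 5′ end was thus higher in both C2C12 libraries than in all 4 ASC libraries. The order turned with only peaks of at most 10 genome copies, to 62.1% in ASC and 60.7% in C2C12. That restriction also removes peaks elsewhere in the RNA, and the cause of the turn was not tested.

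**Figure D3:**
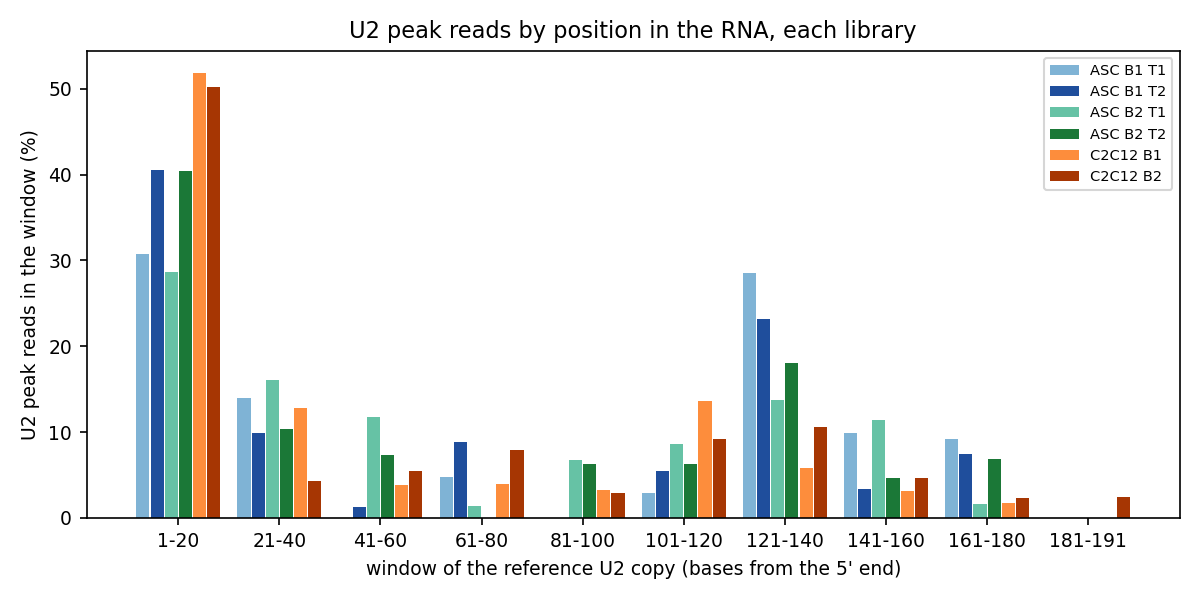
The horizontal axis gives 20-nt windows of the reference U2 copy from its 5′ end, and the height of each bar, from 0, gives the percent of a library's U2 peak reads in that window; colours give the 6 libraries. Bases 1 to 20 hold the highest bar of every library, all of it from plus-strand copies, and a lower group of bars stands at bases 101 to 140.

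A second group of reads lay at bases 101 to 140, which begin within the Sm word and run past it. In ASC bases 101 to 120 held 5.82% ± 2.28 (SD, n = 2 biological replicates) and bases 121 to 140 held 20.9% ± 7.07. In C2C12 they held 11.4% ± 3.19 (SD, n = 2) and 8.24% ± 3.37. Bases 101 to 140 took 31.5, 28.7, 22.4 and 24.3% of U2 reads in ASC, and 19.5 and 19.8% in C2C12. In ASC B1 T1 these 40 bases held slightly more than the 20 at the 5′ end. Bases 41 to 100, between both groups, took 4.76 to 19.9% in ASC and 11 and 16.3% in C2C12. The 3′ part from base 141 took 10.8 to 19% in ASC, and 4.88 and 9.36% in C2C12, with no overlap between the cell types. Many of these reads lay on minus-strand copies, whose peaks were placed differently, as described below. At bases 141 to 160 these copies held 19 of 27, 19 of 19, 28 of 65 and 32 of 32 reads in ASC, and 20 of 29 and 31 of 44 in C2C12. At bases 161 to 180 they held 25 of 25, 37 of 42, 9 of 9 and 43 of 47, and 16 of 16 and 15 of 22. The part of strand in the difference was not tested.

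The words with known roles were covered unevenly. The branch point recognition word lay wholly under 34 peaks on 13 copies, 4, 3, 9 and 8 in the ASC libraries and 7 and 3 in C2C12, with at most 38.5 reads per bin. The Sm word lay wholly under 8 peaks on 5 copies, none in ASC B1 and 3, 3, 1 and 1 in ASC B2 T1, B2 T2, C2C12 B1 and B2. Peaks that touched it by at least 1 base numbered 31 on 11 copies, 0, 3, 8 and 8 in ASC and 6 and 6 in C2C12. GGAC, the core of the m6A consensus, occurs at bases 81 to 84 and lay wholly under 13 peaks on 5 copies, with at most 15 reads per bin. Plus-strand and minus-strand copies held 4 and 9 of these peaks, 19 and 15 of those over the branch point word, and 5 and 3 of those over the Sm word. A bin is wider than any of these words, so a peak over a word does not place the crosslink on it.

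Over plus-strand copies, peaks that held base 1 did not have more summed reads than peaks that began just after it in every library. The medians were 58 against 33 in C2C12 B1 and 55 against 20.5 in C2C12 B2. In ASC they were 10 against 11.5, 29 against 17.5, 19 against 25, and 25 against 8 from 1 copy. These sums depend on the number of bins in a peak. In ASC B2 T1 both peaks from base 2 spanned 2 bins, at 14 and 11 reads per bin, and those with base 1 had 16 to 30. In ASC B1 T1 the peaks from base 2 had 9 and 7 reads per bin, and those with base 1 had 8 to 11. A pair of identical copies allows a closer comparison. U2-11f and U2-11g have the same sequence, but the bins of U2-11f begin 2 nt later along the gene. In C2C12 B2 the bin over bases 0 to 19 of U2-11g, where 0 is the base before the gene, held 63 reads, and the bin over bases 2 to 21 of U2-11f held 28. In C2C12 B1 the 2 bins from base 0 held 77 reads and those from base 2 held 33. The differences were 35 and 44 reads, 55.6 and 57.1% of those on U2-11g.

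The 2 copies differed less in ASC. The bins from base 0 held 17, 22 and 32 reads in ASC B1 T1, B1 T2 and B2 T1, and those from base 2 held 14, 19 and 22. The differences were 3, 3 and 10 reads, 17.6, 13.6 and 31.3% of those on U2-11g and below both C2C12 values. In ASC B2 T2 the peak of U2-11f was wider and could not be set beside that of U2-11g. Inside the RNA the 2 copies hardly differed: 9 pairs of peaks 2 nt apart differed by at most 1 read and 4 of them were equal. If both copies list the same reads, those missing from U2-11f would lie on base 1 or the base before it. On U2-11f these bases belong to the bin that ends at base 1, where neither C2C12 library listed a peak. The place of these reads was thus not shown, and whether the shift gave the differences was not tested. Reverse transcription of an RNA with no crosslink also ends at base 1, and a crosslink at the 5′ end cannot be told apart from such run-off here.

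**Figure D4:**
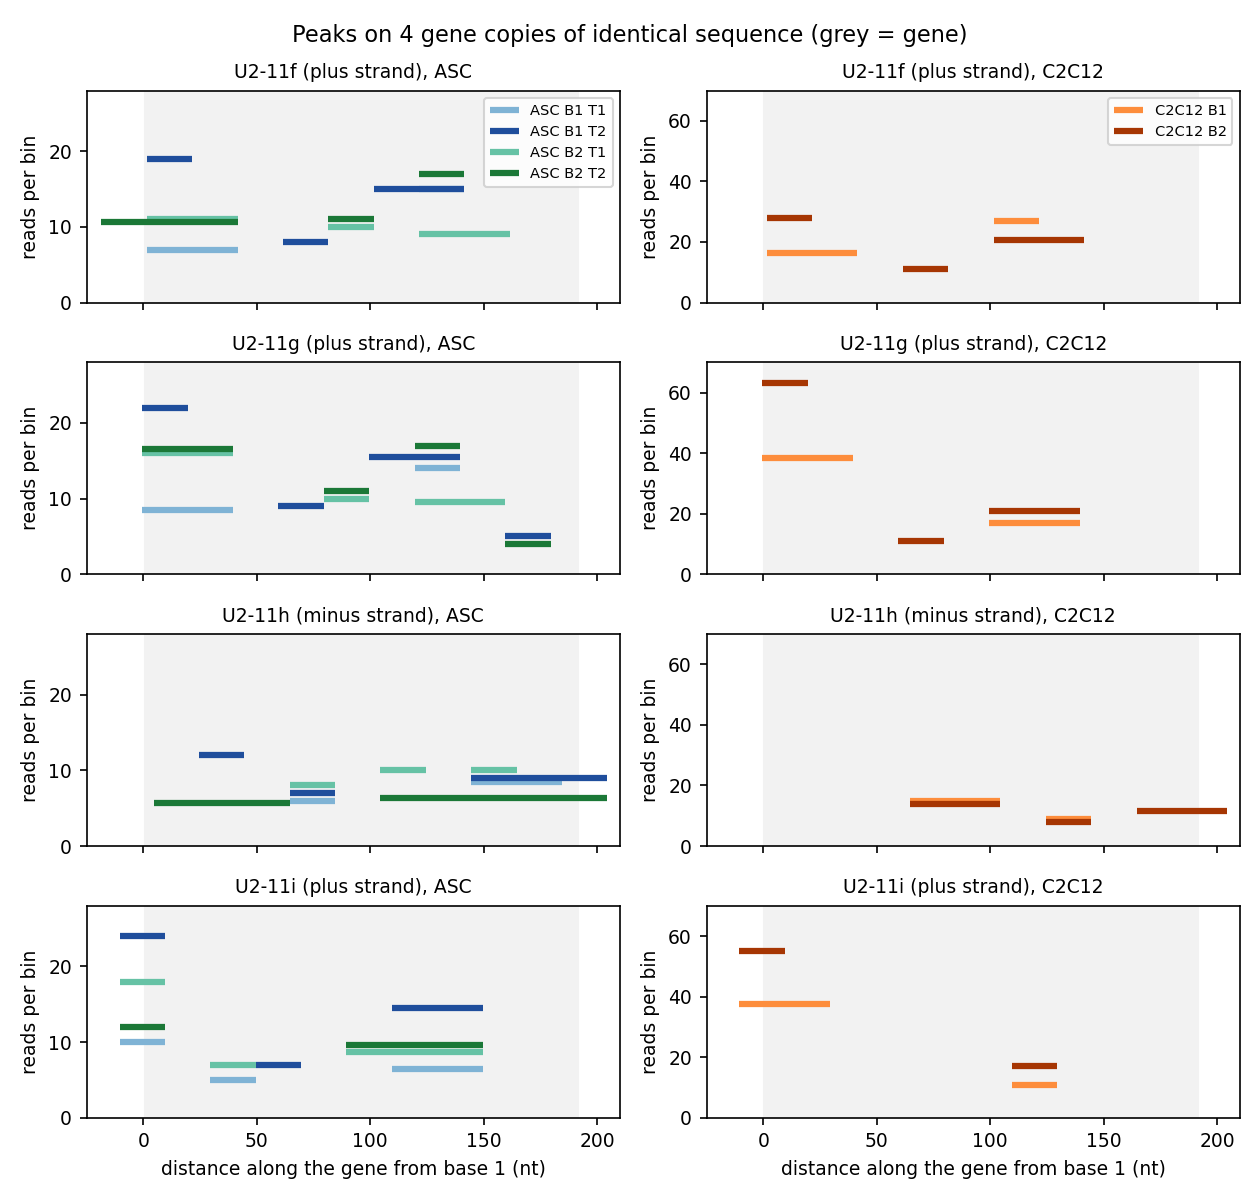
Horizontal bars are peaks on the 4 U2 copies of identical sequence, with distance along the gene from base 1 in nt on the horizontal axis and reads per bin on the vertical axis; rows are copies, columns are cell types, colours are libraries and the grey field is the gene. Peaks at the 5′ end stand out on the 3 plus-strand copies, to 63 reads per bin in C2C12, and are missing from the minus-strand copy U2-11h in C2C12.

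Position also depended on the strand of the genome that carried the copy. On the plus strand, all 9 copies with the first 20 bases intact had a peak touching bases 1 to 7, 54 peaks in all, and their first peak began at a median base of -2. On the minus strand, 2 of 4 such copies had 3 such peaks, and the median was base 20. U2-11h is identical to U2-11f, U2-11g and U2-11i. In C2C12 its first peak lay over bases 65 to 104, at 15 and 14 reads per bin. In ASC it had a peak over bases 25 to 44 in B1 T2, at 12 reads per bin, and over bases 5 to 64 in B2 T2, at 5.67, and none before base 65 in the other libraries. Its peaks reached base 204, past the 3′ end of the gene, in ASC B1 T2, ASC B2 T2 and C2C12 B2, and ended at base 144 in C2C12 B1. The sources used here do not give which end of a read sets its bin, and its part in this difference was not tested. With plus-strand copies alone, a choice made after seeing the data, bases 1 to 20 took 47.9% of U2 reads in ASC and 65.4% in C2C12.

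Most U2 peaks could not be assigned to 1 copy. The 20-nt words of the reference occurred 4 to 492 times in the genome, with a median of 12, and the authors kept up to 10 positions per read. All 40 words that start in the first 40 bases occurred more than 10 times, the first word 176 times. Of the 210 U2 peaks, 132 held a sequence with more than 10 copies. With this setting 1 read can be listed on several copies, so reads summed over copies can exceed the molecules sequenced. The lists do not follow single reads.

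**Figure D5:**
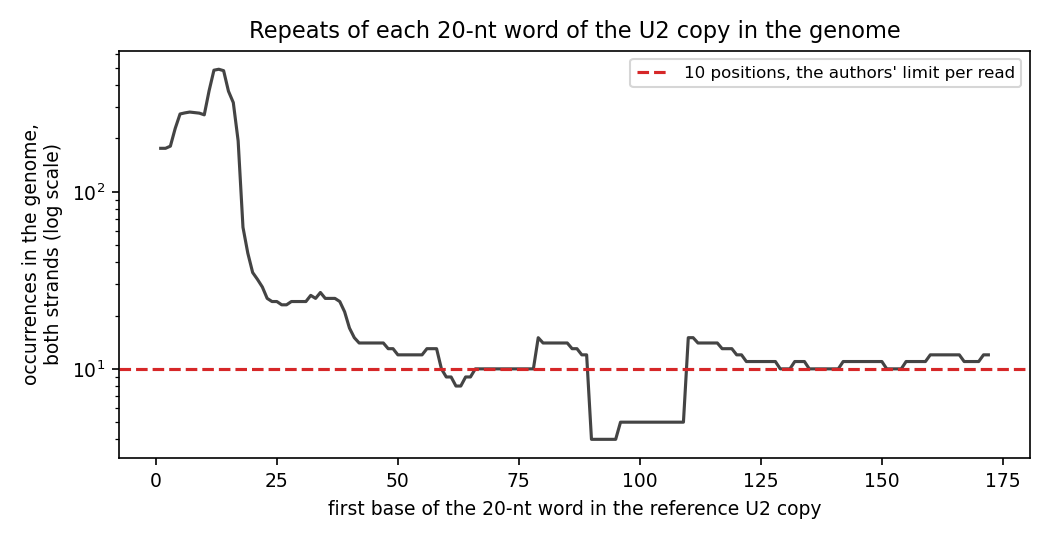
The line gives how often each 20-nt word of the reference U2 copy occurs in the mm9 genome on both strands, on a log axis, against the first base of the word; the dashed line marks the authors' limit of 10 positions per read. The words of the 5′ end reach 492 occurrences, and those over the Sm site fall to 4.

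Fewer peaks lay on sequence of a single copy. A 20-nt sequence found once in the genome lay under 33 peaks, 7 of which reached over an end of the gene into its flank. The other 26 lay inside 12 copies and held 4 to 15 reads per bin. U2-12a had such a peak over bases 100 to 119, at 12 and 13 reads per bin in C2C12 B1 and B2 and in no ASC library. U2-1a had one over bases 148 to 167, at 8 reads per bin in ASC B1 T1 and 9 and 7 in C2C12. U2-Xa had one over bases 38 to 57, at 7 and 7 in ASC B2 T1 and B2 T2 and 7 and 6 in C2C12.

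Other copies that have lost the intact 5′ end also held such peaks. U2-3c had 9, 7 and 15 reads per bin over bases 44 to 63 in ASC B2 T1, ASC B2 T2 and C2C12 B2. U2-8b had 7, 12 and 9 over bases 21 to 40 in ASC B2 T1, C2C12 B1 and C2C12 B2. The Bowtie setting allowed mismatches but kept only the positions with the fewest for each read. A read of another U2 copy could be listed on these 26 bins only if it matched at least as well there. The lists do not follow single reads, so none of the 26 peaks was shown to come from the RNA of its own copy.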

How the data were processed

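LACE-seq of YTHDC1 was analysed in 6 libraries, 4 of ASC-48 hr and 2 of C2C12. The authors trimmed reads with cutadapt 1.15 and removed pre-rRNA reads. They aligned the rest to mm9 with Bowtie 1.2.3 at up to 10 positions per read, keeping only positions with the fewest mismatches. Peaks were called per library with Piranha in 20-nt bins at p 0.001. The Piranha settings are named for ASC and no others are given for C2C12. The linker held randomized nucleotides, and removal of duplicate reads with them is not given in the sources used here. The deposited signal of a peak is its number of reads per bin, a mean over the bins of a wide peak, without normalization. The deposited p-value is that of the authors' caller, without adjustment. Library totals are unknown, and intervals cover counting error only, since it is unknown whether each read is an independent molecule.

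Genes came from GENCODE vM1 on NCBIM37, which is mm9, and no peak lay past a chromosome end of that genome. Peaks count for a gene if their listed strand is opposite to that of the gene, as the lists give the strand of the cDNA. Copies are named by chromosome and order along it. The reference is the copy of 180 to 200 nt nearest to the others, and copies were aligned to it with a match score of 1, a mismatch score of -1 and a gap score of -2. Technical replicates were averaged within biological replicates before the exact permutation test. The copies named were the 5 with the highest mean of their highest reads per bin in each cell type, and the reference. Rnu2-10, also in that rule, was not analysed here. Others are named where a count turned on them, after their values were seen. The U2 genes, motifs and lists were chosen with earlier results of these data known. Python 3.11.15, numpy 2.4.6, pandas 2.3.3, scipy 1.17.1, pysam 0.24.0, samtools 1.23.1 and matplotlib 3.10.9 were used. Functions for overlap, position and alignment were tested on simulated data, and 14 of 14 checks gave the known answer. Alternatives varied the overlap, thresholds, strand, gene length, genome copies, weights and libraries.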

Additional observations from a re-analysis of the deposited data

Results flagged for a closer look

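Peaks were also present on U2 sequence outside the annotated U2 genes. Of 636 loci in the genome that hold an exact 20-nt word of the reference copy, 34 lay in annotated U2 genes and 602 did not. On the RNA strand of the loci outside, 123 peaks were listed in ASC B1 T1, 169 in ASC B1 T2, 205 in ASC B2 T1 and 246 in ASC B2 T2, and 225 in C2C12 B1 and 242 in C2C12 B2. They were noted because they lie outside the genes compared, and the data used here hold no control library to set them against. They held 1.53, 1.97, 3.48 and 1.96% of peak reads in ASC, and 0.534 and 0.491% in C2C12, more than the annotated genes in every library. The highest held 17, 24, 30 and 27 reads per bin in ASC, and 51 and 64 in C2C12. The share was higher in all 4 ASC libraries than in both C2C12 libraries, as on the annotated genes.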

How the results depend on the processing

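The 7 results were recomputed under alternative settings, not every result under each. This gave 91 values in all, 10 of them from settings chosen after seeing the data. Of these values 50 stayed within 1.5 times the count, within 1 SD between replicates or, for the difference, on the same side of 0. The difference never changed sign. The order of the cell types in bases 1 to 20 turned with peaks of at most 10 genome copies and of 1 copy. The difference in the U2 share between ASC and C2C12 ranged from 0.065 to 2.24 percentage points over 17 alternatives. With the replicate block it was 0.522, and 2 pairs cannot give a p below 0.5. Samples with the same replicate number share only the number.

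Values that moved are given for C2C12 first and ASC second. The share of peak reads on U2 genes became 0.547 and 1.43% at p of at most 0.00001, 0.0905 and 0.258% for peaks of at most 10 genome copies, and 0.0336 and 0.0985% for peaks of 1 copy. As a share of peaks it was 0.0575 and 0.32%, with reads divided by genome copies 0.0731 and 0.264%, and with U2 sequence outside annotated genes 0.679 and 2.92%. It was 0.15% in C2C12 with an overlap of at least 10 nt, 0.134% in C2C12 for genes of at least 150 nt, and 1.1% in ASC with at least 6 reads per bin. The share in bases 1 to 20 was 45.6 and 30.4% with the overlap of 10 nt, 63.2 and 41.8% at the stricter p, 45.8 and 30.4% for the longer genes, 60.7 and 62.1% for at most 10 copies, and 49.7 and 52.0% for 1 copy. It was 42.6 and 33.0% with copies weighted equally, 65.4 and 47.9% on plus-strand copies, 48.7 and 33.7% with reads spread over the bins, and 36.4% in ASC with at least 6 reads per bin. Genes with a peak in every library of the cell type numbered 12 and 3 for at most 10 copies and 7 and 1 for 1 copy, and 13 in C2C12 for genes of at least 150 nt. In the first window 26 of 29 peaks with at most 10 copies reached past the 5′ end of the gene, and so did 50 of all 60 peaks there. Causes of the changes were not tested.

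Leaving out 1 library moved the ASC share in bases 1 to 20 between 32.2 and 38%, the ASC share of peak reads between 0.601 and 0.776%. In C2C12 it left the value of the other library, 0.157 and 0.176% of peak reads and 50.3 and 51.8% in bases 1 to 20, and with 2 libraries such a value always lies within 1 SD of their mean. Between cell types 2 replicates each, unknown library totals and reads listed at several positions limit what these values can show.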

Other observations

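The minor spliceosome and other relatives of U2 gave few peaks. U12, which takes the place of U2 on the minor class of introns, held 2, 2, 5 and 7 peaks in ASC and 6 and 6 in C2C12. Its highest bin had 7, 16, 14 and 19 reads in ASC, and 20 and 22 in C2C12. U12 peaks lay on 1, 1, 3 and 3 of 6 annotated genes in ASC and on 3 in each C2C12 library. U11, its partner at the 5′ splice site, held 0, 1, 3 and 2 peaks in ASC and 2 in each C2C12 library, all on 1 of 5 genes. U6atac, with 28 annotated genes, had 1 peak in ASC, in B2 T2, and 3 in each C2C12 library. In every library U12 took a smaller share of peak reads than U2, 0.0224 to 0.0663% in ASC and 0.0182 and 0.0175% in C2C12. The number of U2 genes and of its repeats in the genome is larger, and its part in this was not tested.

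Among the copies without a peak were long ones. These 25 copies had a median of 184 nt and reached 199 nt, and the best match among them, U2-Xe, was 89.5% identical to the reference.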
